A study of Homo sapiens with 5 samples.

Results

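The regions described here carried a peak of H4K12la, histone H4 lactylated at lysine 12, in both libraries of dexamethasone-treated 786-O cells and in neither library of untreated cells. Peaks of the 4 H4K12la lists were merged where they shared at least 1 bp on chromosomes 1 to 22, which gave 180420 regions. Of these, 5635 met the rule, 3.12% of all merged regions and 13.9% of the 40462 regions held by both dexamethasone lists. They are called dexamethasone-only regions below. They were chosen by the presence and absence of peaks in the same 4 lists, so their number and their heights describe the choice and were not tested.

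786-O is an established human renal carcinoma line that lacks the VHL tumour suppressor, so that hypoxia-inducible factor stays active in it. H4K12la was profiled by CUT&Tag, where an antibody-tethered transposase inserts adapters into the chromatin near the epitope, in 2 untreated control libraries and in 2 libraries of cells given 10 µM dexamethasone for 48 h. The glucocorticoid receptor (GR) was profiled in 1 library of cells given the same dose for the same time, with no library of untreated cells, and the labels do not say that replicates were separate cultures. The authors deposited 1 peak list per library, with 123631 and 109801 peaks in control replicates 1 and 2 and 79157 and 66376 in dexamethasone replicates 1 and 2 on chromosomes 1 to 22. The GR list held 7879 peaks there. Read depth is unknown, and a shorter or longer list can come from depth, so the absence of a peak means that none was listed.

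Histone lactylation attaches an acyl group derived from lactate to lysine side chains, and glycolysis supplies the lactate. Marks of this kind are known mainly from promoters and enhancers of active genes. Dexamethasone is a synthetic glucocorticoid that binds GR, which then enters the nucleus and binds palindromic response elements in open chromatin, mostly at enhancers away from genes. Defining genes of the line carried H4K12la at a gene end, meaning within 1 kb of either end of the gene. PAX8, a transcription factor of renal epithelium, had heights of 140, 119, 27 and 18 there, with the control libraries first and each pair in replicate order. VIM, the intermediate filament gene vimentin, had 64, 104 and 14, with no peak listed in dexamethasone replicate 2. Of 8 marker genes of other cell types, the leukocyte gene PTPRC, the endothelial gene PECAM1 and the hepatocyte gene ALB had no end peak in any list. The muscle gene DES had one in all 4, with heights of 25, 22, 24 and 18.

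The dexamethasone-only regions met few gene starts. Among 300 bp RefSeq promoter windows, running from 250 bases before to 50 bases after a gene's start, they overlapped 71 windows of 63 genes. The 4 windows below belong to the highest regions by mean percentile rank of height, and ARF1 is added as the promoter among the dexamethasone-only regions that a GR peak also overlapped. NUP155, a nucleoporin gene, is the window with the highest regions of the control-only class, in both control and neither dexamethasone list, and was chosen after its values were seen. Sequences are from RefSeq (GRCh38.p14), 5′ to 3′ on the gene's strand, and capitals mark CG dinucleotides.
RSPH10B: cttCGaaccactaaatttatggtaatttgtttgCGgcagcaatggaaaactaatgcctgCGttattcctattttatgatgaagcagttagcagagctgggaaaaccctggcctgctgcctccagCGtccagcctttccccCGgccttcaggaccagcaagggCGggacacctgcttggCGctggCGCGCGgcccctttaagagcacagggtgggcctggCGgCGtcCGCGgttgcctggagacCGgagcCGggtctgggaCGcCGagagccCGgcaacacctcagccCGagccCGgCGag
VOPP1: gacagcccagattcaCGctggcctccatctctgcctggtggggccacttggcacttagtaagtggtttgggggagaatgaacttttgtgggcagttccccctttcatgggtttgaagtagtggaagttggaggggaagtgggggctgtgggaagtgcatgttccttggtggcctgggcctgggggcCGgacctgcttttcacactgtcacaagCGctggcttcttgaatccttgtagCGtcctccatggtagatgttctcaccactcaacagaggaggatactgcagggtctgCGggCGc
NIPAL4: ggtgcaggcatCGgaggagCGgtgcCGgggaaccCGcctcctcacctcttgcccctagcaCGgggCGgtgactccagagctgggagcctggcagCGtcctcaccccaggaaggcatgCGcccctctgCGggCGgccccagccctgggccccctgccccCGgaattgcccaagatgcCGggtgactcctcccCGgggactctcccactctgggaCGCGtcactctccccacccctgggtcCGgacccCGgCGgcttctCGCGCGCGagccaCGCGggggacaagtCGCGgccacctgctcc
RNF223: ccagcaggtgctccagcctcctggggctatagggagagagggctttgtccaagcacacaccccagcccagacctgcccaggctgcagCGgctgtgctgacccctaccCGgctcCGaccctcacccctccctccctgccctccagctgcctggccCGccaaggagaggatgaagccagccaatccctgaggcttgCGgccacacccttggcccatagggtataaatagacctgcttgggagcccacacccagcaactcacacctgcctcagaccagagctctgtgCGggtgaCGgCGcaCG
ARF1: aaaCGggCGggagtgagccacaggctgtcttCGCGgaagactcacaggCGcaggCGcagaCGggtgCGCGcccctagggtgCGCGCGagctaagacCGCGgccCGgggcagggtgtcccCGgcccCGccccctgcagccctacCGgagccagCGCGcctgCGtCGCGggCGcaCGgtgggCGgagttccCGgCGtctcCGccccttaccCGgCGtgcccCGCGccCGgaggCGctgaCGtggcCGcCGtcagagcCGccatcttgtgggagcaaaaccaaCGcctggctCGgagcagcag
NUP155: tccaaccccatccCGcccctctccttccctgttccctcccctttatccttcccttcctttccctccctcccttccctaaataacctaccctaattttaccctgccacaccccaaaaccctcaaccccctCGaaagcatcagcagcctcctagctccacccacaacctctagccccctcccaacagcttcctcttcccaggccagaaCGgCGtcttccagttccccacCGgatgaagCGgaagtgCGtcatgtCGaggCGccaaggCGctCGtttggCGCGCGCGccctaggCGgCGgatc
These are chr7:5970640-5970939 on the minus strand for RSPH10B, chr7:55537645-55537944 on the minus strand for VOPP1 and chr5:157459963-157460262 on the plus strand for NIPAL4. They are chr1:1074257-1074556 on the minus strand for RNF223, chr1:228082458-228082757 on the plus strand for ARF1 and chr5:37371057-37371356 on the minus strand for NUP155.

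RSPH10B, a radial spoke gene of motile cilia, had heights of 53 and 49 in dexamethasone replicates 1 and 2, and 22 CG dinucleotides in its window. VOPP1 had 37 and 41 and just 6 CG dinucleotides, at a start inside the gene's span. NIPAL4, which encodes a magnesium transporter of epidermis, had 38 and 31 with 26 CG dinucleotides, and RNF223, a RING finger gene, had 38 and 31 with 9. The printed windows thus ran from CpG-poor to CpG-rich. Over the 71 windows the median was 11 CG dinucleotides, and 39.4% (95% exact binomial interval 28.0 to 51.8%) had an observed to expected CpG ratio over 0.6. The ratio was over 0.6 in 81.2% of 3817 windows overlapped by control-only regions, in 78.2% of 3494 overlapped by regions in all 4 lists and in 62.6% of all 21156 windows. Windows overlapped by regions of a single dexamethasone list had a share of 32.8% of 253, and their median was 9 CG dinucleotides. Sequence was not used by the rule, and these windows held fewer CpG-rich promoters than those of the control-only regions, with intervals that did not overlap (79.9 to 82.4% for control-only).

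A full GR response element, searched as the exact string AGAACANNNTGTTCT, which reads the same on both strands, was found in 0 of the 21156 windows. Elements that differ from this string in any fixed letter were not searched, so the result says nothing about them. A single arm, AGAACA or its reverse complement TGTTCT, lay in 14 of the 71 windows (19.7%), against 11.7% of all windows, 14.6% of those of single-list regions and 9.48% of those of control-only regions. The arm is short and is found often by letter composition alone, and the classes differ in base composition, so the shares describe these windows. The share of the dexamethasone-only regions rests on 14 windows, and no interval was computed for the shares with an arm. Of the printed promoters, VOPP1 held the arm and RSPH10B, NIPAL4, RNF223 and ARF1 did not.

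The deposited heights put the dexamethasone-only regions low in their lists. Heights ran from 11 to 178 in dexamethasone replicate 1 and from 12 to 175 in replicate 2, with a median of 19 in each, where the medians of the whole lists were 23 and 24. The median percentile rank of their highest peak was 33.3 in replicate 1 and 27.3 in replicate 2. Both heights reached 20 in 1791 regions, 30 in 309 and 40 in 57. The rule required a peak in both lists, and heights fell in a narrow range, with quartiles of 16 and 23 in each replicate. Within that range the replicate heights were within 1.5-fold of each other for 5397 regions (95.8%), a share not compared with other classes. Exactly 1 peak of each list was held by 5584 regions. Widths ran from 408 to 3568 bp with a median of 933 bp, and the summits of the replicates lay a median of 214 bp apart, against 196 bp in regions of all 4 lists.

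**Figure D1:**
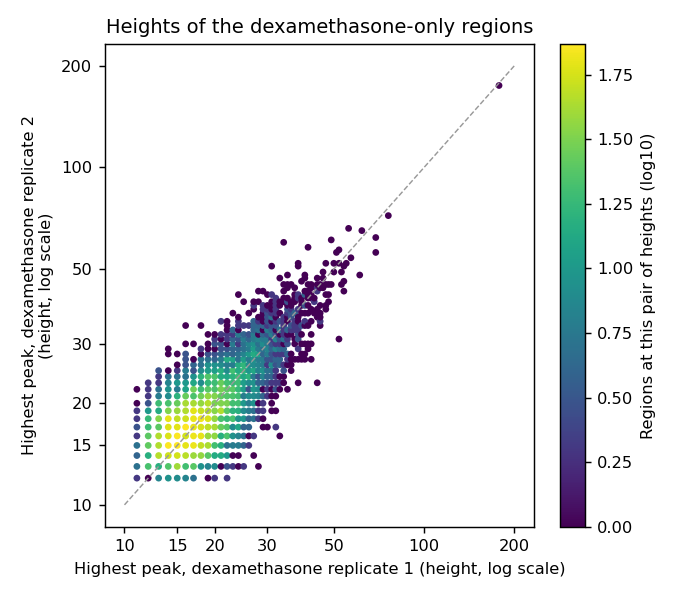
Height of the highest peak of each dexamethasone-only region in dexamethasone replicate 1 (horizontal, log scale) and replicate 2 (vertical, log scale). Each point is a pair of whole-number heights, coloured by the log10 number of regions that share it, and the dashed line marks equal heights. Most regions sit between 15 and 30 in both, and 1 region stands apart at 178 and 175.

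Regions just outside the rule were close in height. The 3679 regions in both dexamethasone lists and control replicate 1 had dexamethasone median heights of 23 and 23, and their control peaks had a median of 17 and a minimum of 9. The 2161 in both dexamethasone lists and control replicate 2 had 23 and 24, with a control median of 19 and a minimum of 10. Regions of a single dexamethasone list had median heights of 17 (17449 regions, replicate 1) and 18 (11567 regions, replicate 2). Just inside the rule, 58 regions had a control peak within 100 bp of their edge that shared no base with them.

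When the regions in both dexamethasone lists were ordered by the lower of their dexamethasone heights and divided into 10 deciles, dexamethasone-only regions made up 46.3% of the lowest decile (heights 11 to 15) and 0.964% of the highest (42 and above). The lowest decile held 1874 of them and the highest held 39. Since low peaks are missed most easily, this fall cannot be told apart from a difference in depth or detection between the lists. The deciles were therefore used to compare regions of like height.

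**Figure D2:**
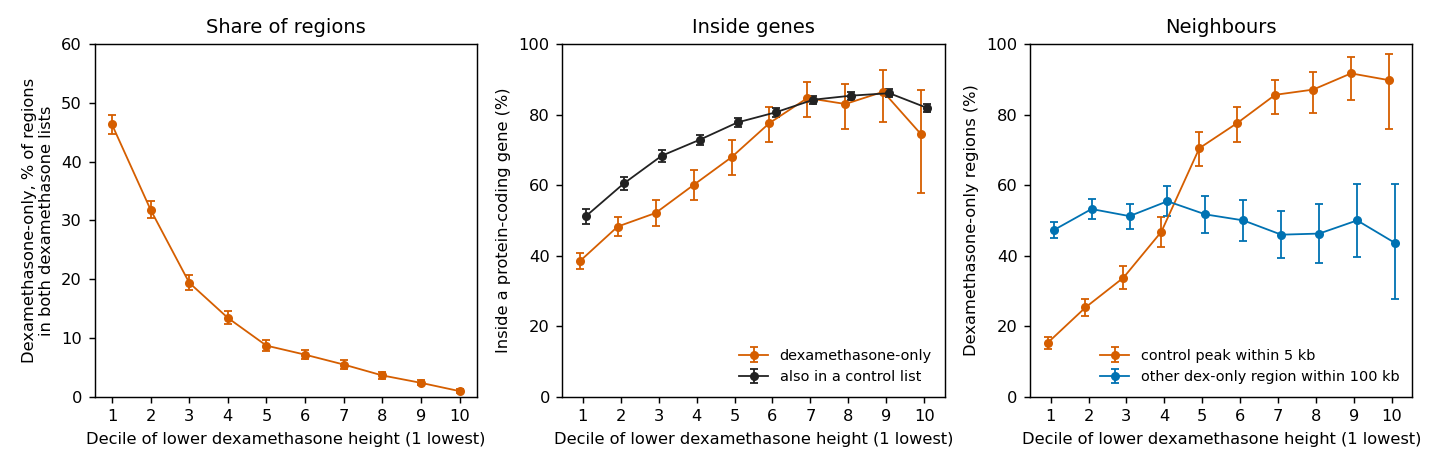
Regions in both dexamethasone lists by decile of the lower dexamethasone height, with 95% exact binomial intervals as bars. Left, the share that is dexamethasone-only (%), which fell from 46.3% to 0.964%. Middle, the share inside a protein-coding gene (%) for dexamethasone-only regions and for regions also in a control list. Their intervals overlapped from the sixth decile on. Right, the share of dexamethasone-only regions with a control peak within 5 kb, which was 15.3% in the lowest decile and 91.7% in the ninth, and with another dexamethasone-only region within 100 kb, which stayed between 43.6% and 55.4%.

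Most dexamethasone-only regions lay away from gene ends. Within 1 kb of an end of a protein-coding gene there were 220 of 5635 (3.90%, 95% exact binomial interval 3.41 to 4.44%), 49.7% lay elsewhere in such genes and 46.4% between genes. Of the control-only regions, 15.9% lay at gene ends and 31.1% between genes, and of the regions in all 4 lists 15.5% and 20.2%. Regions of a single dexamethasone list had 4.08% at gene ends and 38.6% between genes, so at gene ends their share was within the interval of the dexamethasone-only regions. Intervals cover counting error alone, and neighbouring regions are not independent.

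The surroundings were gene-poor. The median distance to the nearest gene end was 41515 bp, against 18968 bp for control-only regions, 16943 bp for regions of all 4 lists and 32992 bp for regions of a single dexamethasone list. Within 500 kb there were a median of 11 gene ends, against 16, 17 and 13. No annotated gene of any kind, noncoding genes included, covered 32.6% of the dexamethasone-only regions. The share was 23.1% for control-only regions, 14.2% for those in all 4 lists and 28.1% for regions of a single dexamethasone list.

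Part of this difference followed height. In the lowest decile, 38.4% of dexamethasone-only regions (interval 36.2 to 40.7%) and 51.2% of the regions also held by a control list (49.0 to 53.3%) lay inside protein-coding genes. In the sixth decile the shares were 77.6% and 80.6%, in the seventh 84.7% and 84.2%, and in the eighth 83.0% and 85.4%. In the ninth they were 86.5% and 86.0%, and in the highest 74.4% (interval 57.9 to 87.0%) and 81.9%. At gene ends the shares differed at low and middle heights, with 3.47% against 10.4% in the lowest decile and 5.17% against 15.1% in the sixth. In the highest decile 39 regions gave 5.13% with an interval of 0.627 to 17.3%, which includes the 12.6% of the others. At like height, the intervals of the gene-end shares did not overlap up to the ninth decile, while a difference inside genes was not detectable from the sixth decile on.

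The gene-end regions were also on another side of their genes. For 180 pairs of a region and a gene end with a RefSeq strand, 68 (37.8%, interval 30.7 to 45.3%) were within 1 kb of a listed start. Of the control-only pairs 75.5% were, of the pairs in all 4 lists 60.2%, and of the pairs from a single dexamethasone list 36.3%. Ends of pairs that were not within 1 kb of a listed start are called far ends below. Dexamethasone-only regions lay at an end of 234 of 19126 protein-coding genes (1.22%), and 31 of these genes shared the region with another gene.

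The highest such region (chr7:5969876-5970780, heights 53 and 49) lay at the start of RSPH10B and the far end of PMS2, a DNA mismatch repair gene, which could not be told apart. A second (chr3:48468515-48470313, 42 and 44) lay at the far ends of ATRIP, a partner of the checkpoint kinase ATR, of TREX1, a DNA exonuclease, and of SHISA5. Far ends of PTPRU, a receptor tyrosine phosphatase gene (41 and 45), and of the nuclear pore gene POM121 (35 and 38) came next. MRPL24, which encodes a mitochondrial ribosomal protein, had 36 and 36 at a far end, in a region that also overlapped HDGF. The sperm calcium channel gene CATSPER3 (37 and 34) and the zinc finger gene ZNF213 (32 and 39) were likewise marked at far ends. The named regions at starts were thus fewer than those at far ends, as in the count over all pairs.

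GR peaks, which the rule did not use, rarely met the dexamethasone-only regions. They overlapped 2 of 5635 (0.0355%, interval 0.0043 to 0.128%), against 8.0% of the control-only class, 7.59% of the class in all 4 lists, 0.274% of regions in both dexamethasone lists and 1 control list, and 0.0793% of regions of a single dexamethasone list. The last 2 classes were also low, and the interval of the single-list regions (0.0503 to 0.119%) overlapped that of the dexamethasone-only regions. GR was profiled in 1 library, and its list is numbered to 15183 with 8065 entries in all, so a missing GR peak is no evidence that GR was absent.

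One of the overlapped regions (chr1:228081792-228082566) reached into the promoter of ARF1, a small GTPase of Golgi traffic, whose sequence is given above with 41 CG dinucleotides. Its heights were 40 and 28, the GR peak ran from 228082278 to 228082757, and a control peak of height 77 lay 517 bp away. The other (chr8:92007497-92008054) lay inside RUNX1T1, a transcriptional corepressor gene, with heights of 19 and 21 and a control peak of height 20 at 207 bp. Both regions that met GR were therefore next to H4K12la that was already listed in untreated cells.

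Within 1 kb of a GR peak there were 9 regions. The nearest after ARF1 and RUNX1T1 were inside COG7, a Golgi tethering gene (heights 22 and 24, at 175 bp), at the end of PARP10, an ADP-ribosyltransferase gene (29 and 27, at 194 bp), and 73186 bp from BOD1, a chromosome segregation gene (16 and 13, at 435 bp). Within 10 kb there were 384 (6.81%), against 17.9% of the control-only class, 16.8% of regions in all 4 lists and 7.91% of regions of a single dexamethasone list. Within 100 kb there were 35.7%, against 60.8%, 64.4% and 43.3%, and the median distance was 171508 bp, against 62434, 56077 and 130330 bp. The single-list regions were thus the nearest to the dexamethasone-only regions in these shares. By height, the share within 100 kb was 23.8% against 46.9% of the other regions in the lowest decile and 66.7% against 65.6% in the highest. A GR peak overlapped 0 or 1 dexamethasone-only region per decile, and up to the eighth decile the intervals did not overlap those of the other regions, whose shares there were 5.90 to 8.5%. In the ninth (0 of 96, upper bound 3.77%) and the highest (0 of 39, upper bound 9.03%) they overlapped those of the others, at 3.85% and 2.0%.

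**Figure D3:**
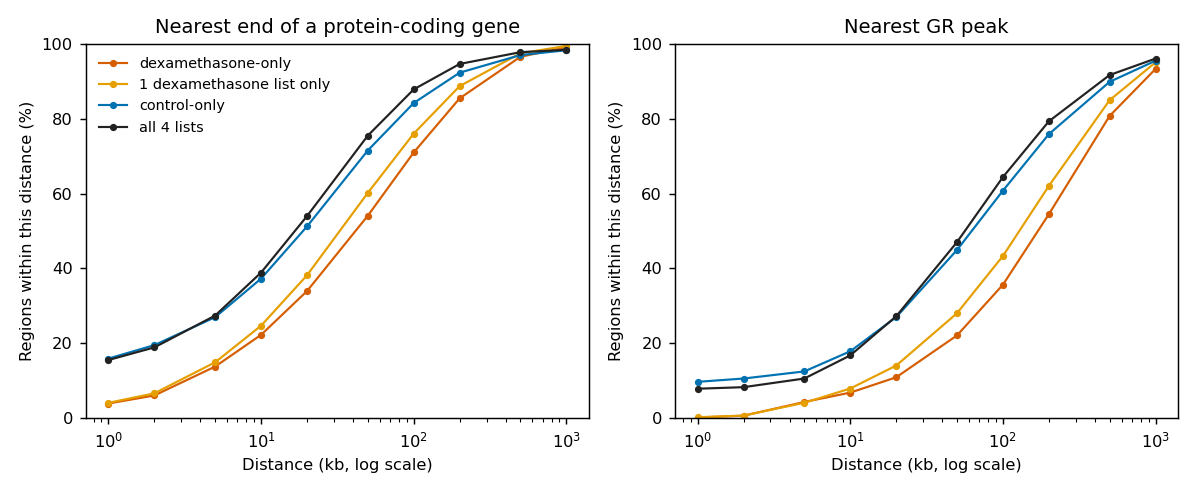
Cumulative share of regions (%, vertical) by distance in kb (horizontal, log scale) to the nearest end of a protein-coding gene (left) and to the nearest GR peak (right). Lines stand for dexamethasone-only regions, regions of a single dexamethasone list, control-only regions and regions in all 4 lists. The dexamethasone-only line was the lowest at 100 kb in both panels, at 35.7% for GR.

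The regions fell along a range from the edges of H4K12la present in untreated cells to stretches with none. A control peak lay within 5 kb of 2045 regions (36.3%), from 5 to 50 kb away for 2333 (41.4%) and beyond 50 kb for 1257 (22.3%), distances chosen after the values were seen. The first group had median heights of 23 and 23 and 72.4% lay inside genes. The last had 17 and 18 and 32.0%, with a median of 6 gene ends within 500 kb against 16. A GR peak lay within 100 kb of 59.0% of the first group and 4.69% of the last. Control peaks within 5 kb were found beside 48.3% of the regions of a single dexamethasone list, more than beside the dexamethasone-only regions (36.3%, interval 35.0 to 37.6%).

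The strongest members belonged mostly to the edge group, with a control peak within 1.5 kb of 9 of the 10 highest. Inside genes these were GAK, a clathrin uncoating kinase gene (69 and 56 in dexamethasone replicates 1 and 2), EXT1, a heparan sulfate polymerase gene (56 and 66), and VCF1 (57 and 54). The actin capping gene CAPZA1 (52 and 57) and GRAMD4 (49 and 61) completed the set inside genes. Their control neighbours had heights of 30, 115, 22, 33 and 79 and lay 204, 1363, 1298, 1131 and 1431 bp away. Another lay 13818 bp from GPRIN2, with heights of 51 and 56, beside a control peak of height 264. The exception was a region 541602 bp from SALL3, a zinc finger gene, with heights of 69 and 62 and its nearest control peak 656588 bp away.

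Another 3 of the 10 lay in the stretch of chromosome 1 around the centromere that has no protein-coding gene. The region with the highest peaks of all (chr1:124744381-124745748) had 178 and 175, and the others (chr1:123433207-123433695 and chr1:124280353-124281597) had 76 and 72, and 62 and 65. Control peaks of height 72, 152 and 77 lay 621, 478 and 1235 bp away. Repeats fill this part of the assembly, and reads there can be placed wrongly, so these heights are uncertain. Within 1 Mb of an end of a protein-coding gene lay 99.2% of the dexamethasone-only and 98.3% of the control-only class.

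The 3 widest regions lay 25167 bp from HMX1, a homeobox gene (3568 bp wide, heights 19 and 22), 135466 bp from CWH43 (3386 bp, 33 and 26) and 70134 bp from BPNT2, a Golgi phosphatase gene (3221 bp, 28 and 29). The first was near the median height of 19, while the region near BPNT2 in both replicates, and that near CWH43 in replicate 1, reached the height that the upper 10% of the dexamethasone-only regions start from (28 and 29). All were between genes, at least 34122 bp from a control peak.

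Dexamethasone-only regions lay beside each other. The next merged region along the chromosome was itself dexamethasone-only for 9.57% (interval 8.81 to 10.4%), where 3.12% of all regions were. It was a region of a single dexamethasone list for 33.4%, against 16.1% of all regions, and a control-only region for 11.95%, against 17.8%. Another dexamethasone-only region lay within 100 kb of 2835 of them (50.3%), forming 1050 runs with gaps of at most 100 kb. In 79 runs there were 5 or more, 507 regions in all, and 22 of these runs were on chromosome 8 and 14 on chromosome 5.

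The longest run by number of regions spanned 703426 bp of chromosome 8 (104756828 to 105460253), between LRP12, a receptor of the LDL receptor family, and the lower-coordinate part of ZFPM2, a GATA cofactor gene. It held 17 dexamethasone-only regions, which were all of its regions in both dexamethasone lists, 14 regions of a single dexamethasone list and 2 regions with a control peak. Heights ran from 13 to 31 in replicate 1 and from 13 to 32 in replicate 2, so no single high peak made up the run. The regions lay along the whole stretch, and 15 of the 17 were between genes.

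The next run, on chromosome 6 (131198071 to 131539207), held 12 regions from within AKAP7, a kinase anchor gene, to the neighbourhood of the arginase gene ARG1, with heights of 13 to 23 and 12 to 25. It also held 9 regions with a control peak. On chromosome 9 (93720430 to 93967603) a run of 10 spanned BARX1, a homeobox gene, and reached towards PHF2, a histone demethylase gene, with heights of 14 to 31 and 16 to 27. None of its 15 regions had a control peak. On chromosome 5 (12225543 to 12795354) a run of 10 lay in a stretch with no protein-coding gene, 321097 bp from CTNND2, a catenin gene of neural junctions. Heights there were 14 to 33 and 14 to 25, and none of its 13 regions had a control peak.

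A run of 10 on chromosome 1 (152565725 to 153050224) differed from these in being dense in genes. It spans 28 protein-coding genes of the epidermal differentiation complex, among them the late cornified envelope genes, IVL (involucrin) and the small proline-rich genes, which keratinocytes use to build the cornified layer. There 6 of the 10 regions were at gene ends, at LCE3E (15 and 14), LCE2A (13 and 19), KPLCE (14 and 22), KPRP (27 and 18), LCE1D (20 and 17) and LCE6A (14 and 14). A control peak was listed in 3 of its 23 regions. No GR peak was listed in any of the 5 runs.

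**Figure D4:**
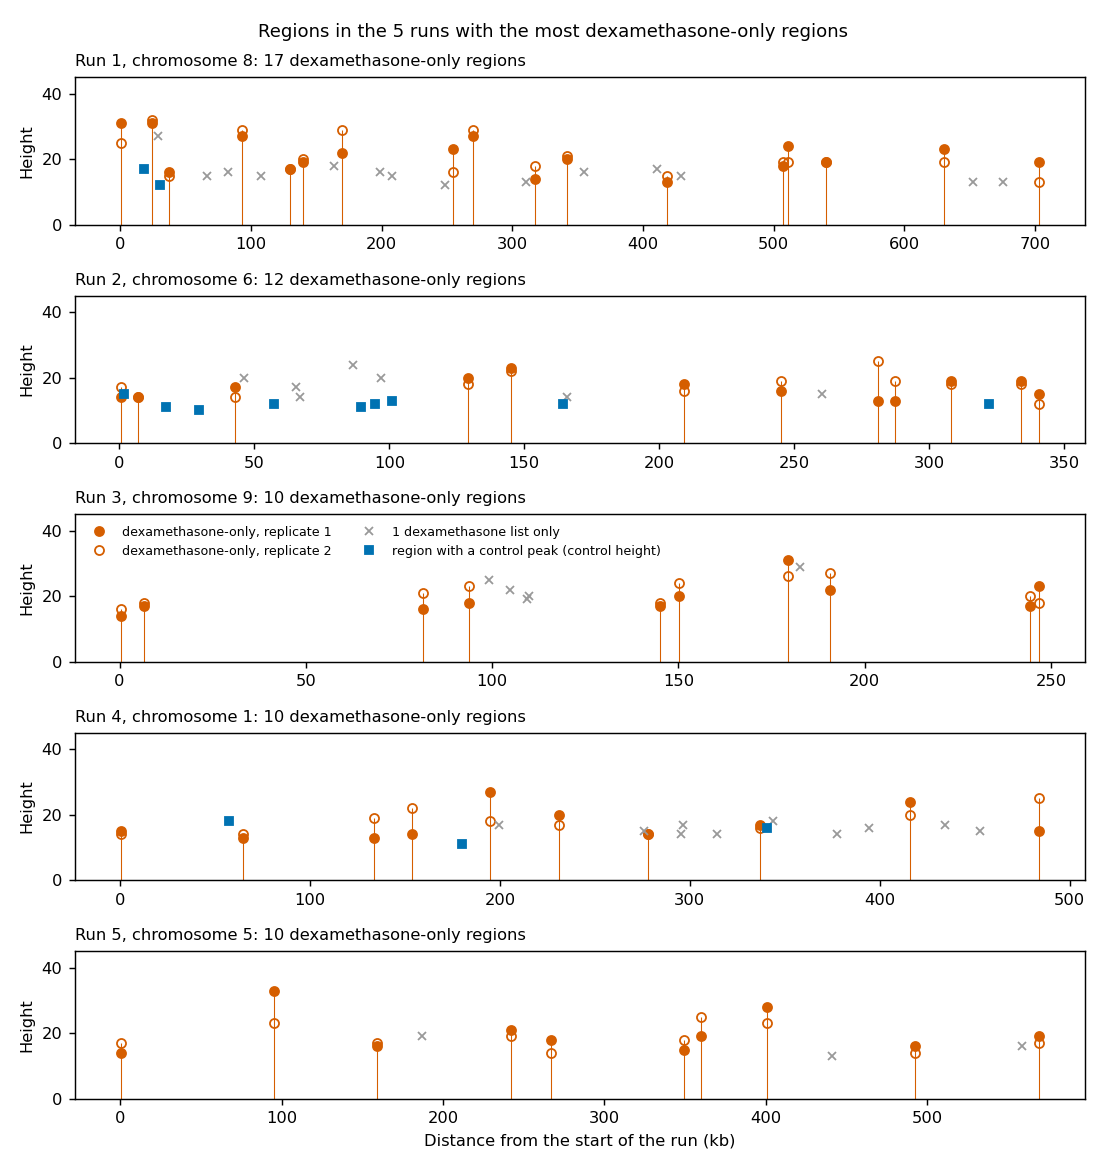
Height as deposited (vertical) against distance in kb from the start of the run (horizontal) for every H4K12la region in the 5 runs with the most dexamethasone-only regions. Filled and open circles give dexamethasone replicates 1 and 2 of a dexamethasone-only region, crosses a region of a single dexamethasone list, and squares the control height of a region with a control peak. Dexamethasone-only heights stay between 12 and 33, and runs 3 and 5 hold no control peak.

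Chromosome 8 held the greatest share. There, 545 of 2525 regions in both dexamethasone lists were dexamethasone-only (21.6%, interval 19.99 to 23.2%), followed by chromosomes 5 (18.0%), 4 (16.9%), 6 (15.8%) and 2 (15.4%). Chromosomes 19 (7.55%) and 22 (7.86%) had the smallest shares, with chromosomes 21 (8.15%) and 16 (8.55%) next. Without chromosome 8 the share over the others was 13.4%. Regions of a single dexamethasone list were ordered much alike, as a share of regions in either dexamethasone list. Chromosome 8 was highest for them too (33.2%), then 5 (31.3%) and 4 (31.2%), and chromosomes 19 (19.2%), 22 (19.4%) and 21 (20.1%) were lowest. The order was thus not particular to the dexamethasone-only regions. Median heights on chromosome 8 were 19 and 19, as over all chromosomes, and copy number along the chromosomes of the line was not measured here, so its part was not tested. In windows of 5 Mb with at least 40 regions in both dexamethasone lists, the highest share was 40% (16 of 40 regions), at 135 to 140 Mb of chromosome 8. Of the 20 highest of 417 windows, 6 were on chromosome 8, and the median over windows was 13.2%.

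**Figure D5:**
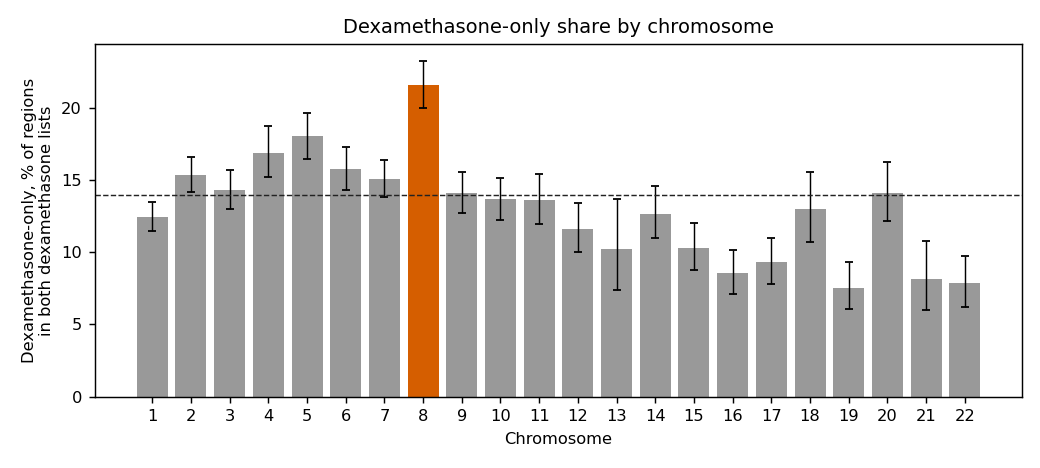
Share of regions in both dexamethasone lists that were dexamethasone-only (%, vertical) for chromosomes 1 to 22 (horizontal). Error bars are 95% exact binomial intervals, the dashed line is the share over all chromosomes (13.9%) and chromosome 8 is coloured. Chromosome 8 stands highest at 21.6%.

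Of 19126 protein-coding genes, 2254 (11.8%) had a dexamethasone-only region in their span or within 1 kb, and 36 had 5 or more inside. These were long genes, with a median length of 108 kb for those holding a region, against 24.5 kb for all genes and 46.0 kb for those holding a control-only region. NKAIN3, which encodes a partner of the sodium pump, held 12 within 750.8 kb of chromosome 8. Its 12 regions were all its regions in both dexamethasone lists, and none of its regions was control-only or in all 4 lists. Along the gene its heights were 25, 17, 18, 22, 34, 19, 18, 25, 26, 15, 13 and 14 in replicate 1 and 15, 19, 24, 14, 25, 20, 16, 22, 25, 17, 20 and 16 in replicate 2. The highest of these (chr8:62581871-62583168, 34 and 25) lay 125470 bp from a control peak.

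SDK1, a cell adhesion gene of synapses, also held 12, of its 16 regions in both dexamethasone lists, with heights of 13 to 25 and 12 to 24. Of these, 9 formed a run of 118312 bp near one end of the gene (chr7:4128289-4246600). GRID1, a glutamate receptor gene, held 10 of 11 (16 to 23 and 14 to 23) and CTNND2 held 9 of 11 (15 to 21 and 13 to 22). ADCY2, an adenylyl cyclase gene, held 7 of 7, with heights of 13, 28, 17, 16, 14, 15 and 23 in replicate 1 and 12, 19, 22, 22, 25, 15 and 21 in replicate 2. In NKAIN3 and ADCY2, every region that the dexamethasone replicates shared was absent from both control lists.

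TRAPPC9, a trafficking complex gene, held 8 but among 29 such regions, with heights of 14 to 54 and 16 to 43, and ACTR3C held 7 of 19 and PTPRN2 7 of 13. RIMS2, a presynaptic scaffold gene, held 7 of 12, and NECAB1, a neuronal calcium-binding protein gene, 7 of 8. Per length, NECAB1 was the densest of the genes with 5 or more, at 4.18 regions per 100 kb, with heights of 16 to 30 and 15 to 30. It was followed by the semaphorin receptor gene PLXNA2 (2.25), RSU1 (2.20), WDFY4 (2.01), ADCY2 (1.61) and NKAIN3 (1.60). ACTR3C (1.58), the focal adhesion kinase gene PTK2 (1.45) and GRID1 (1.30) came next. Over all protein-coding genes there were 0.245 per 100 kb of span.

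Of 39 glucocorticoid-induced genes, 3 (7.69%) had a dexamethasone-only region, against 11.8% of all genes. Per length the list held 0.355 per 100 kb, against 0.245 over all genes, so the share and the density differed in direction. This density rests on 5 regions. Control-only regions were also denser in the list, at 2.77 per 100 kb against 1.80, while regions in all 4 lists were sparser, at 1.28 against 1.92. FKBP5, which encodes a chaperone partner of GR, had 2 inside, the higher with 25 and 28 and 169534 bp from a GR peak, among 5 regions in both dexamethasone lists. KLF15, a transcription factor gene, had 2 (24 and 26 in the higher), and the nucleotidase gene SAMHD1 had 1 (24 and 22, 7714 bp from a GR peak). None of the 39 had one at a gene end. Of 29 glycolysis and lactate genes, 2 (6.90%, 0.153 per 100 kb) had a region, LDHD, a D-lactate dehydrogenase gene (24 and 17), and PFKFB3, a regulator of glycolytic flux (38 and 32).

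Of 21 genes whose products write or erase lactylation or supply its donor, 5 (23.8%) had a region, 1 each, against 11.8% of all genes. These were the histone deacetylase genes HDAC1 (37 and 37) and HDAC2 (27 and 23), the acetyltransferase gene CREBBP (29 and 29), the alanyl-tRNA synthetase gene AARS2 (29 and 30) and the succinyl-CoA synthetase gene SUCLG2 (17 and 19). At AARS2 the region lay at a gene end, also over the promoter of its neighbour DRC5. The genes of this list were longer, with a median of 37.2 kb against 24.5 kb for all genes. Per length the list held 0.318 regions per 100 kb, against 0.245 over all genes. Other classes were denser in it as well, with control-only regions at 3.50 per 100 kb against 1.80 and regions in all 4 lists at 4.21 against 1.92.

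Among kidney tubule genes 3 of 24 had a region (12.5%, against 11.8% of all genes), the endocytic receptor gene LRP2 (20 and 14 in the higher of 2), PAX2 (39 and 27) and PAX8 (34 and 31). Of 28 hypoxia-inducible factor targets, TGFA, a growth factor gene, had 2 (23 and 25 in the higher), and of 28 inflammatory genes NFKB1 had 1. Of 28 epithelial-mesenchymal and matrix genes 4 had one, COL5A1, ZEB1, ITGB1 and TGFB2. None of 30 cell cycle and 30 cytosolic ribosomal protein genes had one, and these are shorter genes, with median lengths of 16.5 and 4.86 kb against 24.5 kb for all genes. Per length, the lists held 0.284 (kidney), 0.187 (hypoxia), 0.222 (inflammatory) and 0.357 (matrix) regions per 100 kb, against 0.245.

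Of 50 neuronal adhesion and synaptic genes, 23 (46%) had a region, led by CDH4 (6) and PCDH15 (6), both cadherin genes, ASTN2 (5) and CDH13 (5). These genes are long, with a median of 1108 kb, and per length they held 0.0835 dexamethasone-only regions per 100 kb, fewer than the 0.245 over all genes. Control-only regions were also sparse in them, at 0.293 per 100 kb against 1.80. The count of genes with a region thus went with gene length, and the density went the other way.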

How the data were processed

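The series holds 5 CUT&Tag libraries of 786-O cells, 4 of H4K12la and 1 of GR. The submitters' processing notes name fastp 0.19.6, Bowtie2, deepTools and the genome build hg38 (GRCh38). The peak caller, thresholds and read totals were not given in the sources used. One peak list per library was deposited. In the H4K12la lists each peak has a whole-number signal as deposited by the authors, called the height here, which is the peak's own value and was used to rank and describe peaks. The GR list has positions and lengths without a height.

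Peaks on chromosomes 1 to 22 were merged at an overlap of 1 bp. Gene positions were read from RefSeq (GRCh38.p14) without strand, and promoter sequences from RefSeq's promoter windows, which give the strand. Genes of chromosome 8 were not used in the sequence work. Shares carry 95% exact binomial (Clopper-Pearson) intervals, which cover counting error only. No test was run, since the members were chosen on the same lists. The members, gene lists and alternatives were chosen with earlier results of these data known.

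Named regions are the 10 with the highest mean percentile rank of height, the 3 widest, those overlapped by or nearest to a GR peak, and the 5 runs with the most members. Named genes are the 10 holding the most members, the 10 densest among those with 5 or more, those with the highest end peaks and up to 4 per gene list. Some items that this rule or the marker list names are not reported here. SUCLG2 and the other regions and genes named beyond these were picked with their values in view. Alternatives were higher minimum heights, equal peak numbers, other merging, overlap, window and distance rules, and leaving out each replicate. The scripts were first tested on simulated data. Versions were Python 3.11.15, scipy 1.17.1, numpy 2.4.6, matplotlib 3.10.9 and pandas 2.3.3.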

Additional observations from a re-analysis of the deposited data

How the results depend on the processing

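The order of the classes rests on lists of unknown depth, and the number of dexamethasone-only regions depended on the rule. It was 1791 with dexamethasone heights of at least 20, and 12850 with the 66376 highest peaks of each list, of which 8565 shared a base with a peak of a whole control list. Leaving out 1 library, which loosens the rule, gave 7860 to 23478. Gene ends held 4.69% at heights of at least 20 and 4.62% at equal peak numbers, 7.10% with windows of 2.5 kb, 13.8% with 5 kb, and 3.91 to 4.76% leaving out 1 library. At equal peak numbers 22.02% of control-only regions lay at gene ends. GR overlapped 6 with heights of at least 15 in every list, 1 at heights of at least 20, 19 at equal peak numbers, 0 when peaks up to 1000 bp apart were merged, 12 when peaks had to cover most of a region, and 0 with no control peak within 1000 bp. It was within 1000 bp of 9 and within 10000 bp of 384, and leaving out 1 library gave 6 to 19. In the same order of the first 6 settings, 56.7, 70.9, 65.5, 50.8, 58.2 and 50.4% lay inside genes (57.4 to 59.3% leaving out 1 library). A control peak lay within 5 kb of 30.2, 67.2, 19, 29.7, 57.8 and 30.01% (37.2 to 47.4%), within 1 kb of 8.98% and within 10 kb of 50.8%. Another dexamethasone-only region lay within 100 kb of 55.9% (heights of at least 15), 31.8% (at least 20), 78.2% (equal numbers), 55.4% (covering) and 48.4% (no control peak within 1000 bp), and 59.96 to 88.2% leaving out 1 library. It lay within 50 kb of 32.3% and within 250 kb of 74.96%. This share moves with the number of regions. No paired analysis was made, since no test was run and the labels do not say whether control and dexamethasone replicates were paired.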

Other observations

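Dexamethasone-only regions were counted in the same way outside chromosomes 1 to 22. On chromosome X there were 85 among 584 regions in both dexamethasone lists (14.6%, 95% exact binomial interval 11.8 to 17.7%), and on unplaced and alternate contigs the share was 12.6% of 882 regions (interval 10.5 to 14.96%). Both intervals include the 13.9% of chromosomes 1 to 22.

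Among 1461 microRNA hairpins of RefSeq, 6 were overlapped by one of the 5635 dexamethasone-only regions. The larger control-only class, of 32189 regions, overlapped 67, so the counts are not to be compared without the class sizes. The 6 were MIR5008 (heights 21 and 25 in dexamethasone replicates 1 and 2), MIR5682 (19 and 17), MIR4277 (21 and 19), MIR3907 (35 and 27), MIR4294 (20 and 23) and MIR650 (21 and 25).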
